A study of Mus musculus with 14 samples.

Results

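The 10 genes of MHC class I presentation described here were chosen by symbol, and each symbol matched 1 Ensembl row of the deposited expression table. They are 10 of its 33939 genes, and all 10 passed the filter on low values in every comparison. They comprise the heavy chains H2-K1, H2-D1 and H2-T23, the light chain B2m, the peptide transporter and its loading partner Tap1, Tap2 and Tapbp, and the inducible proteasome subunits Psmb8, Psmb9 and Psmb10. The libraries came from CD11b+ cells taken 3 days post-TBI (controlled cortical impact) from the brains of C57BL/6 mice aged 8 to 12 weeks. All mice carried the tamoxifen-inducible Cx3cr1-CreER on 1 allele and all received tamoxifen. Cx3cr1-CreER+/- mice without a floxed allele served as control (Ctrl), and Cx3cr1-CreER+/- mice homozygous for the floxed allele were the conditional knockout (cKO). The hemisphere on the side of the impact (ipsilateral, IL) and the opposite one (contralateral, CL) gave 4 CL and 4 IL libraries of Ctrl mice and 3 of each hemisphere of cKO mice. The library numbers name 8 mice, 6 of which gave both hemispheres, with 784 and 788 taken as different cKO mice. The authors give 4 Ctrl and 3 cKO animals, all males, for this sequencing. Taking 784 and 788 as different mice departs from their cKO count, and the paired cKO values below rest on that reading. Cre in this line acts in Cx3cr1-expressing cells, whereas the magnetic sort on CD11b also takes neutrophils and monocytes that entered the brain.

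Class I molecules carry peptides cut by the proteasome to the cell surface, where CD8+ T cells and NK cells read them. Interferon replaces the catalytic subunits Psmb5, Psmb6 and Psmb7 by Psmb8, Psmb9 and Psmb10, which forms the immunoproteasome. Tap1 and Tap2 together pump the peptides into the endoplasmic reticulum, Tapbp (tapasin) holds the empty heavy chain at the pump, and B2m binds every classical heavy chain. Microglia hold these genes at modest levels in the healthy brain and raise them under interferon, with Nlrc5 as the transactivator of the class I promoters.

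Of the 10 genes, 8 lie on chromosome 17 (GRCm38, the assembly of the mm10 build the authors mapped to). The H2-K1 gene spans chr17:33996017-34000347 and H2-D1 spans chr17:35262730-35267499. Psmb9, Tap1, Psmb8 and Tap2 lie together within 34.3 kb. The start sites of Psmb9 and Tap1 that RefSeq gives are 226 bases apart on opposite strands, so the 2 genes leave a shared promoter in opposite directions. The windows from 250 bases before to 50 after the start site (RefSeq, GRCm38.p6, strand of the gene, 5′ to 3′) are shown for the heavy chain and light chain genes and for the promoters of the genes whose values differed between hemispheres, together with Psmb9, which shares its window with Tap1. Capitals mark the motifs searched on both strands, which were the kappaB site GGGATTCCC, the ISRE core GAAANNGAA, the GAS element TTCNNNGAA and the CCAAT box CCAAT. None of the marked motifs overlap one another.
H2-K1, chr17:34000298-34000597, minus strand: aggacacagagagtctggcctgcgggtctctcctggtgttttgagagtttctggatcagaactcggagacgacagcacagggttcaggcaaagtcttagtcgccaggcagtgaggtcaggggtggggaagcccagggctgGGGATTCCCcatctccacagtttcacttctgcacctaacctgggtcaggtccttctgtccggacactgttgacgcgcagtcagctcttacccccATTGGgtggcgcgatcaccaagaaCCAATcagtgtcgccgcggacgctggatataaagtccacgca
H2-D1, chr17:35262844-35263143, plus strand: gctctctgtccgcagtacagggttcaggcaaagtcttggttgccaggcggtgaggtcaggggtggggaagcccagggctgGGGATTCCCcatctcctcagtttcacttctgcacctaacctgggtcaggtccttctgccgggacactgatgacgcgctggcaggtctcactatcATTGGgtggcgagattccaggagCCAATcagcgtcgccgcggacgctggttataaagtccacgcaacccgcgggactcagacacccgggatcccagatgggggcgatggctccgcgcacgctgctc
H2-T23, chr17:36032652-36032951, minus strand: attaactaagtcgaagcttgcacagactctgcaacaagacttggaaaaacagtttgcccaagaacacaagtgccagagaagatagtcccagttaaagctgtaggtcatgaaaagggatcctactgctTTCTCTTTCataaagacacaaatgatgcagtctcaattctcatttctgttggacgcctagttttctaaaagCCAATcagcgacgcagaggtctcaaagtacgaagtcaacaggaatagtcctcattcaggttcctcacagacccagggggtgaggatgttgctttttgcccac
B2m, chr2:122147437-122147736, plus strand: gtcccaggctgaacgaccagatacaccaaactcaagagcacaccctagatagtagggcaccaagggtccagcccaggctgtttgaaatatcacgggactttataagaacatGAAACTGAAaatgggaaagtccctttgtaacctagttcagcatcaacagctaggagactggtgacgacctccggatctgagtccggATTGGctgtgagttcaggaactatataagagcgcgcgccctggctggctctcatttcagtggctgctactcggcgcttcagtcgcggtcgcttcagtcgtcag
Tap1, chr17:34187306-34187605, plus strand: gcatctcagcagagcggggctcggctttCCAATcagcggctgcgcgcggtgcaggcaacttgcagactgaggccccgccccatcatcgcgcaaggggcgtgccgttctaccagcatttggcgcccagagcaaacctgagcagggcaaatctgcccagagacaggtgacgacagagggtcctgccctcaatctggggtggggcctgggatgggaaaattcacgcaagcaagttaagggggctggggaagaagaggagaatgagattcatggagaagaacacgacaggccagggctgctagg
Psmb9, chr17:34187281-34187580, minus strand: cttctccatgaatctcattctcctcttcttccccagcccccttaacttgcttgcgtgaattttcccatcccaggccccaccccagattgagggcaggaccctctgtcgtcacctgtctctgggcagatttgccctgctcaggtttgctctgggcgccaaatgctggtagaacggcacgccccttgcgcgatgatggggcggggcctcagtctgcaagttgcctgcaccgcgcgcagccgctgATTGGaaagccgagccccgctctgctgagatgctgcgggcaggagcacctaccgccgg
Psmb8, chr17:34197945-34198244, plus strand: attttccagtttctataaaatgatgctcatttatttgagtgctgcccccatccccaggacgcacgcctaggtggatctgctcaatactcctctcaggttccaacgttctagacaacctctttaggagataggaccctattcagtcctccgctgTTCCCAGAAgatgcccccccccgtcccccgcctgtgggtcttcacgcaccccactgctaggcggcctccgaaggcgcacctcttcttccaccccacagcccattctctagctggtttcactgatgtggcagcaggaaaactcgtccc

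RefSeq windows were matched for 9 of the 10 genes, all but Tap2, with the first of 2 listed windows taken for H2-K1. The kappaB letters stood in the windows of H2-K1 and H2-D1, at 110 and 170 bases before the start site, against 0.353% of all 32851 windows of the same length. The bases next to the site are the same in both windows, so these are not 2 independent matches. No enrichment was tested. The letters searched for the ISRE core were found in 2 of 9 windows, those of B2m and H2-T23, against 8.56% of all windows. An interferon element that departs from these letters would be missed. Windows without them, those of H2-K1 and H2-D1 included, therefore cannot be said to lack an ISRE. The GAS letters were found in the Psmb8 window alone among the 9, against 8.3% of all windows. A CCAAT box was found in 7 of 9 windows, against 37.4% of all windows. The Tap1 and Psmb9 windows share 275 bases, and neither holds the ISRE core letters, the GAS letters or the kappaB letters as searched. These matches describe letters in the windows and not binding.

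The deposited values of each library sum to 1e+06 and were read as counts per 1e+06 reads assigned to genes (CPM). The step size of the low values gave 12.2 to 41.6 M reads per library, with a median of 34.2 M, and the shallowest library was Ctrl IL of mouse 3546.

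Per kb of annotated exon, B2m was the most abundant of the 10, at 1221 ± 301 CPM per kb (SD, n = 14 libraries). H2-D1 followed at 617 ± 157, H2-K1 at 232 ± 33.4 and Tapbp at 162 ± 19.8 CPM per kb. H2-T23, Psmb8 and Psmb10 stood at 69.7 ± 12.5, 54.4 ± 8.94 and 53.8 ± 11.4 CPM per kb. Tap2, Tap1 and Psmb9 were lowest, at 21.8 ± 6.23, 13.8 ± 3.13 and 12.0 ± 1.93 CPM per kb. The ranges of H2-D1, H2-K1, Tapbp and H2-T23 did not overlap from each to the next. Those of H2-T23 and Psmb8 did, and Psmb8 exceeded Psmb10 in only 8 of 14 libraries. Tap1 exceeded Psmb9 in 10 of 14 libraries. Lengths were those of all annotated exons together, 5476 bases for Tap1 and 3781 for Tap2. The longest coding transcripts of these genes have 2953 and 3442 bases, so the order of genes with near levels depends on the length used.

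The first comparison asked how the class I genes in CD11b+ cells of the injured hemisphere differed from those of the uninjured hemisphere of Ctrl mice. Fold changes below are on the log2(CPM + 1) scale, IL over CL, after scaling of libraries, and a gene was called when its limma adjusted p over all genes tested was at most 0.05 and its fold change at least 1.2. None of the 10 genes was called in Ctrl with the libraries unpaired, where 1231 of 16376 genes tested were called (7.52%). In that limma fit 2 of the 10, H2-D1 and Tap1, had an unadjusted p under 0.05, against 3594 of the 16376 genes. With the mouse entered as a block, which pairs the hemispheres, 2 of the 10 rose, again H2-D1 and Tap1, against 3349 genes in all (20.5%). The median of the 10 was -0.09, beside -0.03 over all genes tested, and its sign rested on single libraries: leaving out 1 at a time gave -0.10 (without Ctrl IL of mouse 3541) to 0.08 (without Ctrl IL of mouse 3546), and 0.0036 without Ctrl CL of mouse 3541. In bulk samples, fewer cells of a type and less RNA per cell cannot be told apart.

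**Figure D1:**
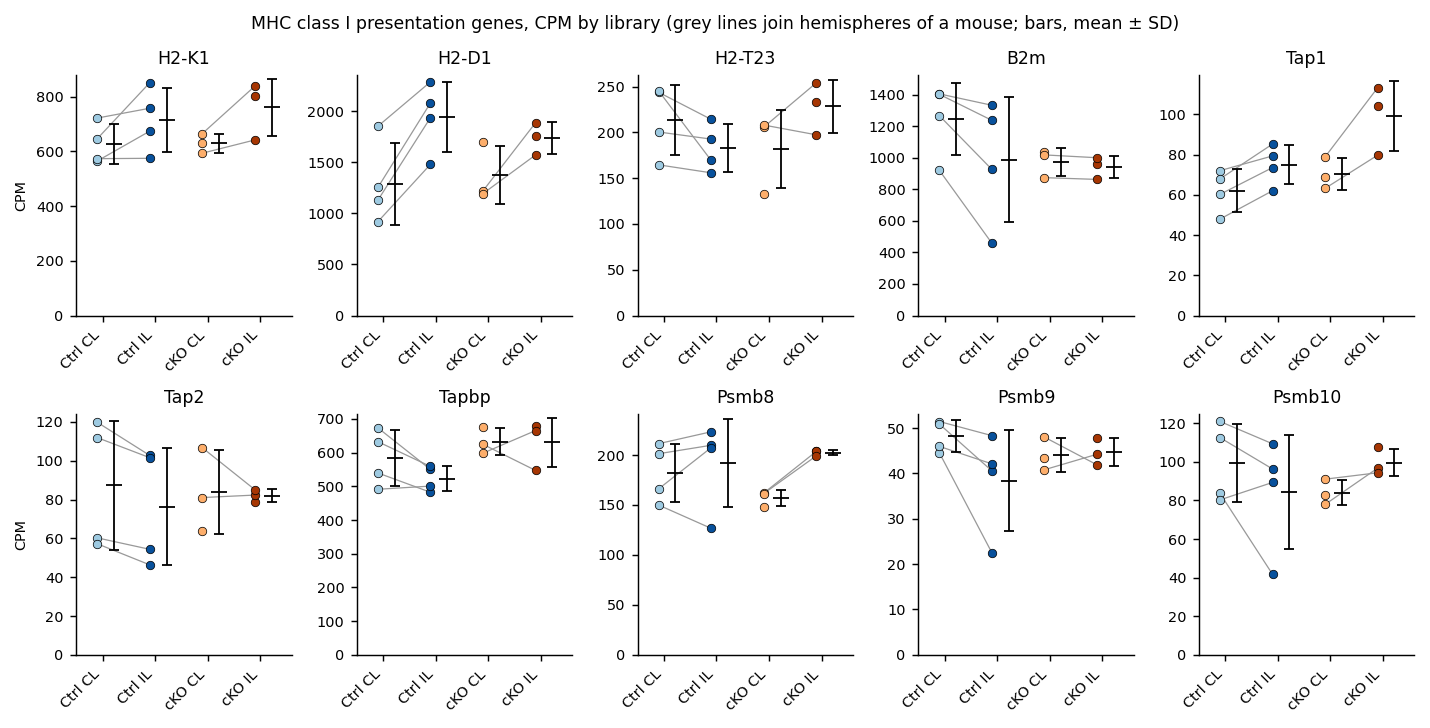
CPM of each gene (linear axis from 0) in the 14 libraries, by group; points are libraries, grey lines join both hemispheres of a mouse, and bars give the mean ± SD. H2-K1, H2-D1 and Tap1 rise along each of the 6 lines, H2-K1 hardly so in mouse 3551, whereas Tap2 separates mice rather than hemispheres.

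H2-D1, a classical heavy chain presented on nearly all cells, read 1854, 1130, 1255 and 920 CPM in the Ctrl CL libraries of mice 3541, 3545, 3546 and 3551. The Ctrl IL libraries of the same mice read 2288, 1938, 2082 and 1481 CPM. Every mouse was higher in IL, although the groups overlapped because mouse 3541 was high in both hemispheres and mouse 3551 low in both. On the log2 scale the difference was 0.71, with SE 0.27 and adjusted p = 0.149 by limma with libraries unpaired, and SE 0.11 and adjusted p = 0.0051 with the mice paired. In cKO, H2-D1 read 1699, 1221 and 1194 CPM in CL (mice 788, 791 and 3592) and 1761, 1888 and 1572 CPM in IL (mice 784, 791 and 3592). The groups overlapped through mouse 788, which gave no IL library. The fold change of 0.42 (limma SE 0.20, adjusted p = 0.158) became 0.59 (limma SE 0.20, adjusted p = 0.0656) within the 2 cKO mice that gave both hemispheres. Over all 6 such mice, the difference between hemispheres ranged from 0.41 to 0.92 on the log2 scale and was positive in 6 of 6.

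H2-K1, the other classical heavy chain of this strain, was higher in IL in 6 of 6 mice too, by 0.12 to 0.48 on the log2 scale. It read 721, 565, 646 and 573 CPM in Ctrl CL and 757, 674, 851 and 574 CPM in Ctrl IL, in the same order of mice. The step was thus small in mouse 3551 and the largest of the 4 in mouse 3546. IL and CL differed on the log2 scale by 0.27 in Ctrl (limma SE 0.18, adjusted p = 0.431), and 0.0896 was the adjusted p with the mice paired. In cKO it read 630, 665 and 593 CPM in CL and 801, 838 and 642 CPM in IL, a log2 difference of 0.33 (limma SE 0.15, adjusted p = 0.161). H2-K1 and H2-D1 transcripts are 88.4% identical over 1515 aligned bases, and H2-D1 also resembles H2-Q7 (89% over 1105 bases), so reads may have been shared among these genes.

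H2-T23, which encodes Qa-1, the non-classical heavy chain read by NK cell receptors. It read 244, 245, 200 and 165 CPM in Ctrl CL and 214, 169, 193 and 156 CPM in Ctrl IL. In cKO it read 133, 206 and 208 CPM in CL and 233, 254 and 197 CPM in IL. The lowest of all 14 values was that of mouse 788 in CL. As log2 fold changes, limma gave -0.13 in Ctrl (SE 0.20) and 0.41 in cKO (SE 0.19), with limma adjusted p of 0.802 and 0.155. Without the CL library of mouse 788 the cKO value was 0.22 (limma adjusted p = 0.375), and within the 2 paired mice it was 0.19 (limma adjusted p = 0.401).

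B2m, the light chain, read 1405, 1403, 921 and 1267 CPM in Ctrl CL and 1333, 1238, 459 and 927 CPM in Ctrl IL. The value of 459 CPM, in mouse 3546, was the lowest of the 14 and under the next lowest, 863 CPM in cKO IL. The log2 fold change in Ctrl was -0.34 (limma SE 0.36, adjusted p = 0.671) and 0.03 without that library. In cKO, B2m read 1036, 1018 and 874 CPM in CL and 961, 1001 and 863 CPM in IL, with a log2 difference of 0.01 (95% interval -0.32 to 0.35). The light chain thus showed no detectable rise beside the heavy chain H2-D1 in Ctrl.

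Tap1, which binds and carries peptide as one side of the transporter, read 72.0, 47.9, 67.9 and 60.2 CPM in Ctrl CL. The Ctrl IL values were 79.3, 62.0, 85.2 and 73.5 CPM, higher in each of the 4 mice. The log2 fold change of 0.36 had SE 0.16 and adjusted p = 0.224 by limma with libraries unpaired, and SE 0.08 and adjusted p = 0.0213 with the mice paired. In cKO, Tap1 read 68.9, 78.8 and 63.2 CPM in CL and 104, 113 and 79.7 CPM in IL, so that the groups did not overlap. The log2 fold change there was 0.54 (limma SE 0.17, adjusted p = 0.0539) and, within the 2 paired mice, 0.50 (limma SE 0.13, adjusted p = 0.0272). With only 2 pairs, the latter SE and adjusted p rest largely on the variance that limma borrows from all genes. Tap1 and Psmb9 share 212 exonic bases on opposite strands in the annotation, and reads of an unstranded library falling there cannot be told apart.

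Tap2, the partner subunit of the same transporter, differed between mice more than between hemispheres. It read 60.2 and 57.2 CPM in CL and 54.3 and 46.3 CPM in IL in mice 3541 and 3545. In mice 3546 and 3551 it read 120 and 112 CPM in CL and 103 and 102 CPM in IL, above mice 3541 and 3545 in both hemispheres. The values in cKO lay between, at 63.7, 81.0 and 107 CPM in CL and 78.8, 82.3 and 85.1 CPM in IL. The log2 difference was -0.12 in Ctrl (limma SE 0.28, adjusted p = 0.889) and 0.07 in cKO (limma SE 0.16, adjusted p = 0.798). Of the 6 mice with both hemispheres, 1 was higher in IL for Tap2, a cKO mouse, with differences from -0.31 to 0.17 on the log2 scale.

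Tapbp was the steadiest of the 10, with a ratio of its highest to its lowest library of 1.41. It ranged from 491 to 673 CPM in Ctrl CL, 482 to 559 in Ctrl IL, 598 to 676 in cKO CL and 547 to 680 in cKO IL. Groups that differ in hemisphere alone, or in genotype alone, overlapped. On the log2 scale the difference was -0.06 in Ctrl (95% interval -0.42 to 0.29) and 0.06 in cKO (95% interval -0.27 to 0.39).

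The second comparison put the same question in cKO mice. Among the 10 genes only Psmb8 was called with the libraries unpaired, against 3870 of 16758 genes tested (23.1%), and only Tap1 with the mouse as a block, against 2997 genes (17.9%). The median of the 10 was 0.32, beside 0.01 over all genes tested, and all 10 fold changes were positive, those of B2m, Tap2 and Tapbp turning negative under some alternatives. The IL and CL libraries did not overlap for 3 of the 10, Tap1, Psmb8 and Psmb10, against 42.4% of genes tested, whereas in Ctrl they overlapped for all 10, against 17.7% of genes that did not overlap. In each of these counts the share among the 10 lay at or below the share among all genes tested.

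**Figure D2:**
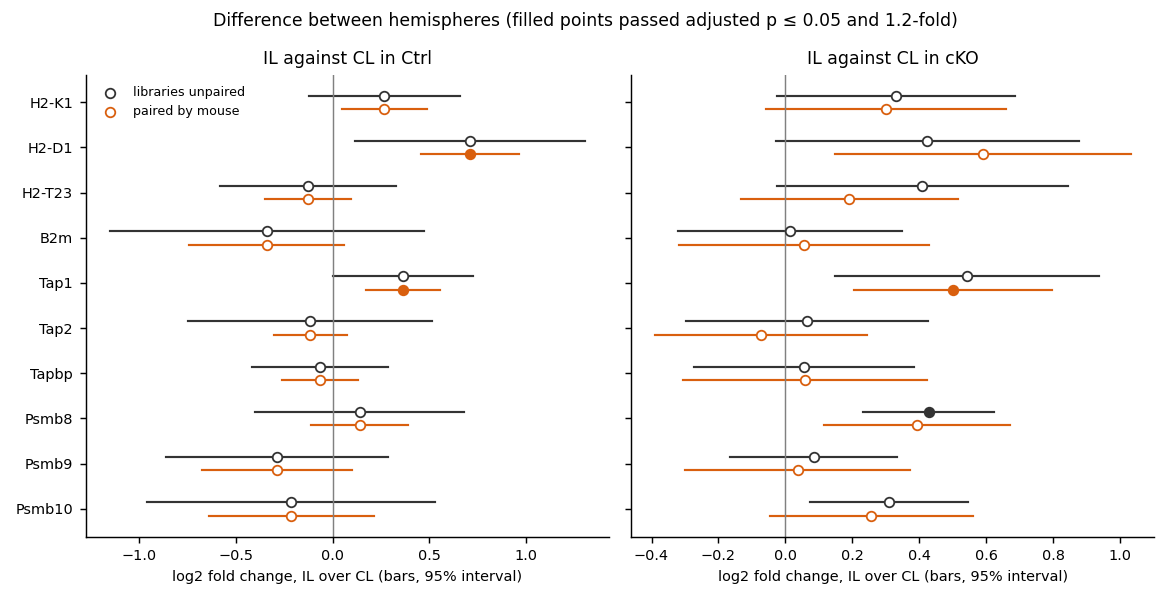
Log2 fold change of IL over CL for each gene in Ctrl (left) and cKO (right), with 95% intervals, from limma with libraries unpaired (black) and paired by mouse (orange); filled points passed the test. H2-D1 and Tap1 are filled with pairing in Ctrl, Tap1 with pairing in cKO and Psmb8 without pairing in cKO.

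Psmb8, the inducible chymotrypsin-like subunit, read 148, 162 and 161 CPM in cKO CL and 204, 204 and 199 CPM in cKO IL. The groups did not overlap and the IL libraries lay within a narrow band. IL and CL differed on the log2 scale by 0.43 (limma SE 0.09, adjusted p = 0.0115), and the adjusted p with the mouse as a block, over 2 pairs, was 0.0545. In Ctrl, Psmb8 read 211, 201, 150 and 166 CPM in CL and 223, 210, 127 and 207 CPM in IL. It was higher in IL in 3 of 4 Ctrl mice and lower in mouse 3546, with a log2 difference of 0.14 (limma SE 0.24, adjusted p = 0.822), or 0.37 (limma SE 0.19, adjusted p = 0.247) without Ctrl IL of mouse 3546. The call in cKO was lost without the IL library of mouse 784 or of mouse 791, where none of the 10 was called, and without that of mouse 3592 Psmb8 was joined by H2-K1, Tap1 and Psmb10, making 4 called.

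Psmb9, the inducible subunit that leaves the promoter shared with Tap1, was called in neither genotype. It read 51.5, 50.9, 44.6 and 46.0 CPM in Ctrl CL and 48.3, 40.6, 22.5 and 42.1 CPM in Ctrl IL. In cKO it read 43.4, 40.8 and 48.0 CPM in CL and 47.9, 44.2 and 41.9 CPM in IL. Apart from mouse 3546 in IL, all libraries lay between 40.6 and 51.5 CPM. As log2 fold changes, limma gave -0.29 in Ctrl (limma SE 0.26, adjusted p = 0.598) and 0.08 in cKO (95% interval -0.16 to 0.33). Without Ctrl IL of mouse 3546 the Ctrl value was -0.02.

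Psmb10, the inducible trypsin-like subunit, read 121, 113, 83.7 and 80.3 CPM in Ctrl CL and 109, 96.3, 41.7 and 89.4 CPM in Ctrl IL. In cKO it read 83.0, 77.9 and 91.0 CPM in CL and 108, 96.8 and 94.4 CPM in IL, without overlap. The log2 difference was -0.21 in Ctrl (limma SE 0.33, adjusted p = 0.792) and 0.31 in cKO (limma SE 0.10, adjusted p = 0.0633). Without the Ctrl IL library of mouse 3546 the value in Ctrl was 0.13.

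Each inducible subunit takes the place of a constitutive one, so the ratio of the pair was followed in every library. These ratios are of (CPM + 1) and not per length, so they serve to compare groups and not subunits. The Psmb9 to Psmb6 ratio read 0.325, 0.361, 0.435 and 0.353 in Ctrl CL and 0.20, 0.154, 0.267 and 0.190 in Ctrl IL. In cKO it read 0.351, 0.317 and 0.377 in CL and 0.238, 0.203 and 0.192 in IL. It was lower in IL in 6 of 6 mice and no IL library reached the lowest CL library. The difference of -0.82 on the log2 scale (a fold of 0.568) had p = 0.00143 in a two-sided exact permutation test of hemisphere within genotype, the smallest p its 1400 arrangements can give, and 0.00429 adjusted over the 3 ratios. With the mouse as a block the difference was -0.86, and the exact sign-flip test over 6 mice gave an adjusted p of 0.0938, the smallest p of its 64 arrangements being 0.0312.

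Psmb6, the constitutive partner in this ratio, rose in cKO. It read 126, 131 and 129 CPM in cKO CL and 205, 222 and 223 CPM in cKO IL, a log2 difference of 0.81 (limma SE 0.08, adjusted p = 0.00196). In Ctrl, Psmb6 read 160, 143, 104 and 132 CPM in CL and 246, 269, 87.0 and 226 CPM in IL, a log2 difference of 0.60 (limma SE 0.37, adjusted p = 0.398). It was higher in IL in all Ctrl mice but 3546.

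The Psmb10 to Psmb7 ratio averaged 2.06 ± 0.363 in Ctrl CL (SD, n = 4), 1.47 ± 0.278 in Ctrl IL (n = 4), 2.03 ± 0.363 in cKO CL (n = 3) and 1.82 ± 0.236 in cKO IL (n = 3). It was lower in IL in 4 of 6 mice, and the difference of -0.34 on the log2 scale had an adjusted p of 0.0536 by the same exact permutation test. The Psmb8 to Psmb5 ratio averaged 4.83 ± 1.57 in Ctrl CL, 4.22 ± 1.13 in Ctrl IL, 2.83 ± 0.564 in cKO CL and 2.42 ± 0.277 in cKO IL. The hemispheres differed by -0.20 on the log2 scale, with an adjusted p of 0.3 by the exact permutation test. Its range in cKO lay under that in Ctrl in both hemispheres, from 2.31 to 3.43 against 3.53 to 7.09 in CL and from 2.17 to 2.72 against 2.86 to 5.38 in IL, a difference that was not tested. Psmb5 itself had a log2 fold change of cKO over Ctrl of 0.57 in CL and 0.89 in IL, with limma adjusted p of 0.488 and 0.392.

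**Figure D3:**
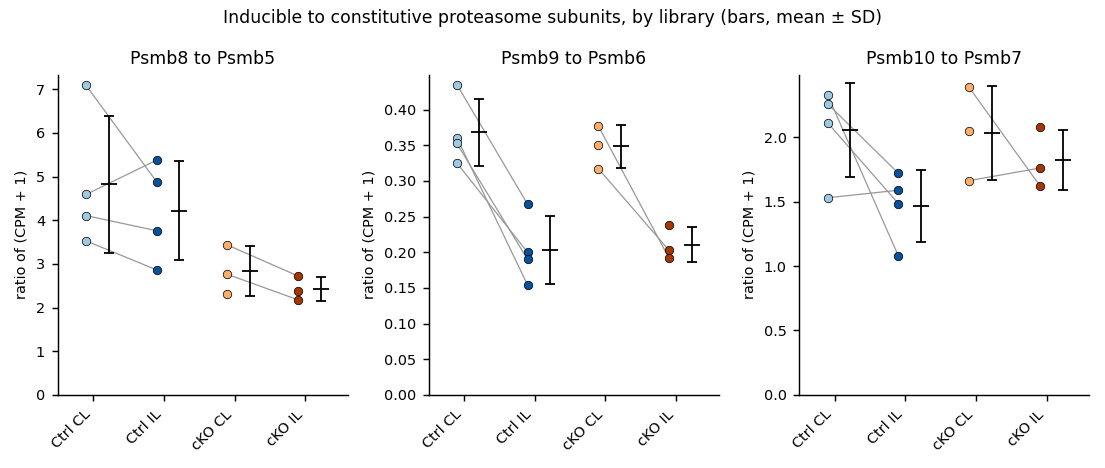
Ratio of (CPM + 1) of each inducible proteasome subunit to the constitutive subunit it replaces (linear axis from 0), by library and group, with lines joining the hemispheres of a mouse and bars for the mean ± SD. The Psmb9 to Psmb6 ratio falls along all 6 lines, from 0.317 to 0.435 in CL down to 0.154 to 0.267 in IL.

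The rest of the class I pathway was read from lists of genes. Of the 14 constitutive subunits of the proteasome core, 13 rose in IL in cKO, against 23.1% of all genes tested called there, and none passed the test in Ctrl, against 7.52%. All 14 fold changes were positive in both genotypes, and in the interaction of genotype and hemisphere limma called 0 of the 14, with 0 at an unadjusted p under 0.05. Their median was 0.50 in cKO and 0.16 in Ctrl, beside 0.01 and -0.03 over all genes tested. Behind Psmb6, the largest rises in cKO were those of Psmb5 (0.64, SE 0.17, limma adjusted p = 0.0286) and Psmb4 (0.57, SE 0.08, limma adjusted p = 0.00406). Of the 5 proteasome activators and assembly factors, 3 rose in cKO, namely Psme2, a subunit of the interferon-induced activator, by 0.63 (limma SE 0.10, adjusted p = 0.00488), Psme3 by 0.62 (limma SE 0.10, adjusted p = 0.00543) and Pomp, the assembly chaperone, by 0.37 (limma SE 0.11, adjusted p = 0.0429). The last was not called with the mouse as a block (0.39, SE 0.12, limma adjusted p = 0.0553). Psme1, the partner of Psme2, had 0.41 in cKO (limma SE 0.18, adjusted p = 0.138) and -0.12 in Ctrl (limma SE 0.28, adjusted p = 0.876). In Ctrl none of the 5 passed unpaired, and pairing by mouse added Psme3 (0.40, SE 0.09, limma adjusted p = 0.0192).

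Of 9 genes for peptide trimming and loading chaperones none passed the test in either genotype, with medians of 0.12 in Ctrl and 0.26 in cKO. Erap1, which trims peptides in the endoplasmic reticulum, had 0.23 in Ctrl (limma SE 0.14, adjusted p = 0.388) and 0.26 in cKO (limma SE 0.13, adjusted p = 0.197). Of 17 other class I and class I-like heavy chains 13 were tested, and 1 of them, H2-T22, rose in cKO, by 0.88 (limma SE 0.23, adjusted p = 0.0279), against 23.1% of all genes called there. With the mouse as a block, H2-Q7 (0.59, SE 0.16) and H2-T22 (0.41, SE 0.11) rose in Ctrl with limma adjusted p of 0.0384 and 0.0396. Fcgrt, the neonatal Fc receptor, which also pairs with B2m, fell by 0.49 in the same fit (limma SE 0.09, adjusted p = 0.00974). These were 3 of the 13, against 20.5% of all genes. In cKO that fit called H2-Q6, H2-Q7 and H2-T22, all higher, against 17.9% of all genes.

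Upstream of these genes, Nlrc5, the transactivator of class I promoters, rose in IL in both genotypes. It read 4.50, 2.33, 5.97 and 2.24 CPM in Ctrl CL and 10.8, 5.75, 19.2 and 12.6 CPM in Ctrl IL, a rise of 1.5 on the log2 scale (SE 0.35, adjusted p by limma 0.030). In cKO it read 5.45, 5.46 and 3.91 CPM in CL and 10.3, 11.1 and 9.47 CPM in IL, a log2 difference of 0.99 (limma SE 0.18, adjusted p = 0.00884). Nlrc5 was higher in IL in 6 of 6 mice, and its log2 difference was above that of each of the 10 class I genes in the same comparison. In the list of 18 transactivators and interferon signalling genes, 1 rose and 1 fell in Ctrl (4 and 1 in the paired fit), and 4 rose and 2 fell in cKO (4 and 2 in the paired fit), beside the same shares of all genes given above.

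Ifngr1, a chain of the interferon-gamma receptor, fell by 0.76 in Ctrl (limma SE 0.16, adjusted p = 0.0184) and by 1.10 in cKO (limma SE 0.17, adjusted p = 0.00456). Irf1, an interferon-induced activator of class I genes, had -0.30 in Ctrl (limma SE 0.18, adjusted p = 0.40) and 0.01 in cKO (limma SE 0.11, adjusted p = 0.961). Stat2 and Ifnar1 rose in cKO and, with the mouse as a block, in Ctrl as well (0.54 and 0.48, limma adjusted p of 0.0207 and 0.00806). Rfx5 fell in cKO with the libraries unpaired, with a limma adjusted p of 0.0934 in the paired fit. Of the ligands, Ifng was at most 0.42 CPM in any library. Ifnb1 ranged from 0.74 to 2.25 CPM in Ctrl IL and from 3.47 to 11.7 CPM in cKO IL (log2 fold change of cKO over Ctrl in IL 1.53, SE 0.40, limma adjusted p = 0.198). It was higher in IL in 5 of 6 mice and was called in neither genotype unpaired. With the mouse as a block, IL over CL was 0.88 in cKO (SE 0.26, limma adjusted p = 0.0392) and 0.26 in Ctrl (SE 0.19, limma adjusted p = 0.385).

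**Figure D4:**
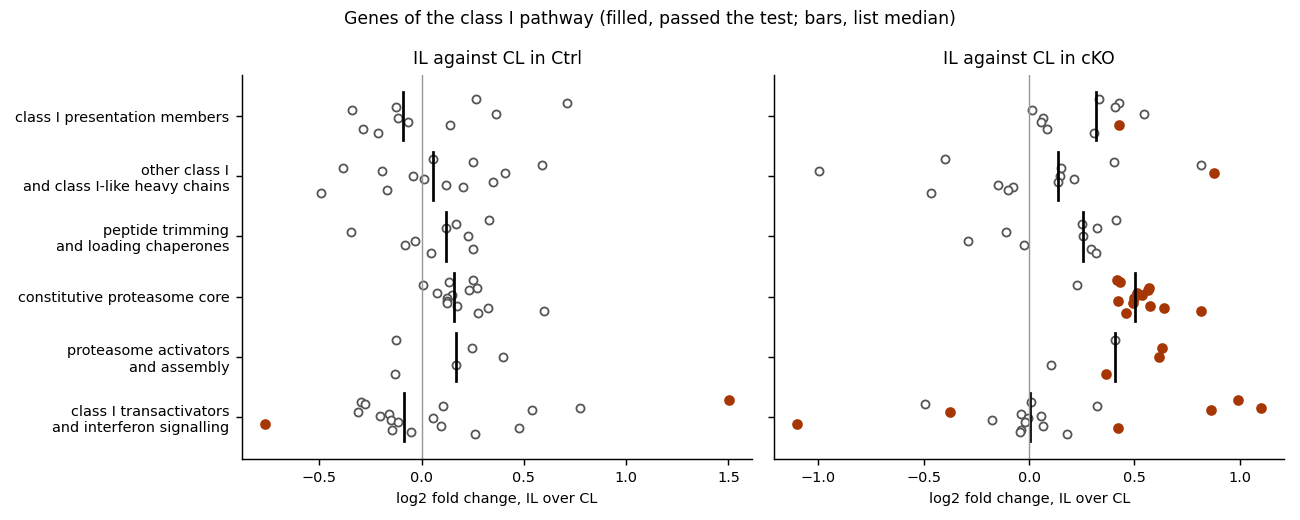
Log2 fold change of IL over CL for each tested gene of the class I lists in Ctrl (left) and cKO (right), with libraries unpaired; filled points passed the test and black bars give the list median. In cKO 13 of 14 proteasome core subunits are filled, beside 1 of the 10 class I presentation genes.

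The third comparison asked whether the conditional knockout in Cx3cr1-expressing cells went with other class I levels, in the same libraries as above. None of the 10 genes was called between cKO and Ctrl in IL, where limma called 113 of 16873 genes (0.67%), or in CL, where it called 150 of 16570 (0.905%). Of the 10, 1 had an unadjusted limma p under 0.05 in IL and 0 in CL, against 1559 of 16873 and 1688 of 16570 genes tested. In IL, Tap1 had the largest fold change, 0.41 (SE 0.17, unadjusted p = 0.0416 and adjusted p = 0.512 by limma), and its 95% interval ran from 0.02 to 0.80. H2-T23 and Psmb10 followed with 0.34 each, with limma adjusted p of 0.649 and 0.892. Without Ctrl IL of mouse 3546 the Psmb10 value was -0.0057, and that of H2-T23 was 0.32. The IL libraries of the 2 genotypes overlapped for all 10 genes, against 10.3% of genes tested that did not overlap, and the CL libraries did so too, against 10%. The 95% intervals for H2-K1 ran from -0.31 to 0.54 in IL and from -0.31 to 0.41 in CL, and those for H2-D1 from -0.61 to 0.35 and from -0.46 to 0.77. Differences inside these intervals could not be detected with these libraries.

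The median of the 10 was 0.25 in IL and -0.03 in CL, beside 0.02 and -0.02 over all genes tested. Without Ctrl IL of mouse 3546 the IL median was 0.083, and leaving out 1 library at a time gave CL medians from -0.14 (without cKO CL of mouse 3592) to -0.02. Among the other lists, Hfe, a class I-like protein of iron uptake that pairs with B2m, fell by 0.56 in cKO IL (limma SE 0.09, adjusted p = 0.0392). It read 161, 158, 209 and 186 CPM in Ctrl IL and 114, 114 and 128 CPM in cKO IL. Hfe did not overlap between genotypes in CL either, at 208, 232, 215 and 194 CPM in Ctrl and 131, 107 and 167 CPM in cKO, a log2 difference of -0.63 (limma SE 0.17, adjusted p = 0.177). No other gene of the class I pathway lists was called between genotypes in either hemisphere. Nlrc5 had -0.09 in IL and 0.42 in CL, with limma adjusted p of 0.968 and 0.695.

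The interaction of genotype and hemisphere, which tests whether the change from CL to IL differed between cKO and Ctrl, was not called by limma for any of the 10 genes or for any of the 18476 genes tested (0%). At an unadjusted p under 0.05 there were 477 genes and 0 of the 10. With the mouse as a random effect in limma, 4 genes were called, none of them among the 10. The estimates were positive for 9 of the 10 and negative for H2-D1 (-0.30, SE 0.38), and the largest were 0.52 for H2-T23 (SE 0.31) and 0.51 for Psmb10 (SE 0.44). Without cKO CL of mouse 788 that of H2-T23 was 0.33, and without Ctrl IL of mouse 3546 that of Psmb10 was 0.14. The sign for H2-K1, B2m, Tap2 and Tapbp turned when single libraries were left out. The call of Psmb8 in cKO but not in Ctrl was thus not a difference between genotypes that passed a test (interaction 0.27, SE 0.32, and 0.02, SE 0.23, without Ctrl IL of mouse 3546).

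The 10 genes also varied among the libraries of a group. In Ctrl IL, mouse 3546 was the lowest of 4 for B2m, Psmb8, Psmb9 and Psmb10, in CPM and after scaling. It was the highest for H2-K1, Tap1 and Tap2 in CPM but not after scaling. The same library was lowest in its group for Psme2 (11.2 CPM against 34.6 to 39.8) and Pomp (40.5 CPM against 157 to 178), and it was the shallowest of the 14. The part of depth in these values was not tested. In cKO CL, mouse 788 was lowest of the 3 for H2-T23 and H2-T22 (12.9 CPM against 16.8 and 21.7) and highest for H2-Q4, at 14.9 CPM against at most 3.37 in the other 13 libraries. H2-Q1 and H2-T10 were highest there as well, at 1.36 and 5.92 CPM. Tap2 was the only one of the 10 with a negative correlation with the mean of the standardised levels of the 10 (r = -0.45 over 14 libraries).

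**Figure D5:**
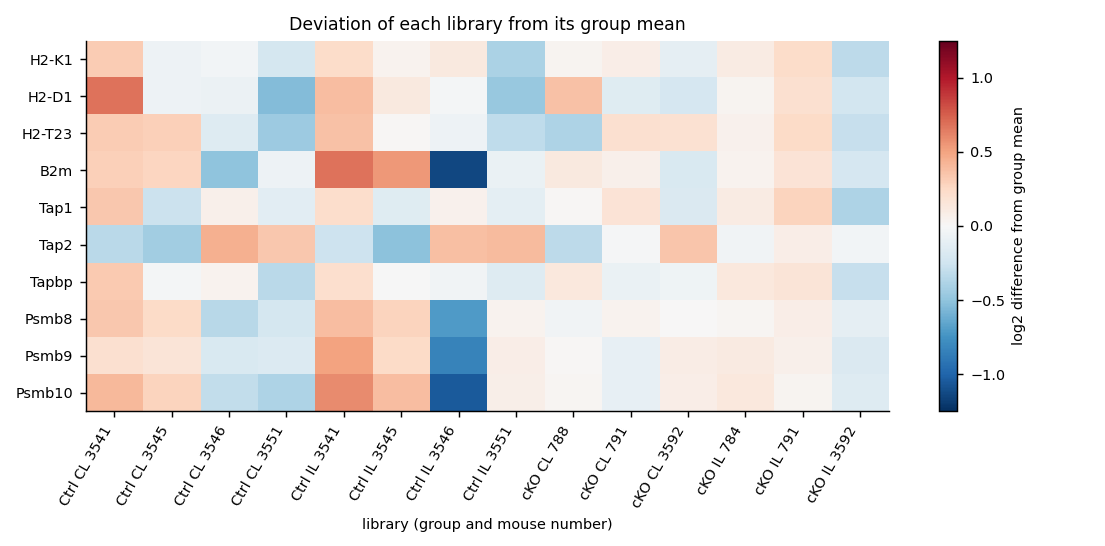
Difference of each library from the mean of its group, on the log2 scale, for the 10 genes (rows) in 14 libraries (columns); red is above and blue below the group mean. B2m, Psmb8, Psmb9 and Psmb10 are low together in Ctrl IL of mouse 3546, and Tap2 runs opposite to them between mice 3541 and 3545 and mice 3546 and 3551.

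The genes whose pattern over the 14 libraries was most like the mean of the 10 standardised levels, among 9747 genes with a mean of at least 3 on the log2 scale, were Ifi35 (Pearson r = 0.958), Cdc37 (0.940), Ncf4 (0.934), Isg20 (0.925) and Trex1 (0.920). Ifi35, Isg20 and Trex1 are known as interferon-induced genes, Cdc37 as a kinase co-chaperone and Ncf4 as a subunit of the phagocyte NADPH oxidase. The libraries share mice and depth, so these values are descriptions. Without the Ctrl IL library of mouse 3546 they ranged from 0.907 to 0.951.

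Markers of cell types moved between hemispheres as well. The summed level of 11 microglia markers ranged from 37952 to 42629 CPM in Ctrl CL and from 21760 to 26534 CPM in Ctrl IL, and from 36485 to 39360 CPM in cKO CL and from 22322 to 24475 CPM in cKO IL. Of these 11, 5 fell in Ctrl and 6 in cKO (7 and 6 in the paired fit). Of 8 markers of infiltrating monocytes 4 rose in Ctrl and 4 in cKO (4 rose and 1 fell, and 5 rose, in the paired fit), with sums from 90.9 to 729 CPM in Ctrl CL, 162 to 382 in Ctrl IL, 102 to 225 in cKO CL and 214 to 287 in cKO IL. The 8 neutrophil markers summed to 1174 to 3863 CPM in Ctrl CL, highest in mouse 3541, and to 794 to 1039 in Ctrl IL, 964 to 1464 in cKO CL and 758 to 970 in cKO IL. None of them rose in IL. Their median log2 difference was -1.69 in Ctrl, where none was called unpaired, 4 had an unadjusted p under 0.05 and 6 fell in the paired fit. For cKO the median was -0.76, and 3 fell unpaired and 5 paired. All 3 cell types hold class I genes, and their part in the hemisphere differences above was not tested.

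T and NK cell markers summed to at most 27.5 CPM in any library, with Cd3e at most 0.55 and Cd8a at most 0.36 CPM, and 4 of the 6 tested fell in Ctrl IL (5 in the paired fit). In cKO, 0 of 8 tested were called unpaired and 1 of 7 fell in the paired fit. Between genotypes in CL 0 were called, with a median of -0.83 and 4 of 6 at an unadjusted limma p under 0.05. B cell markers summed to at most 43.4 CPM, of which Cd79b made most, and 1 of 3 tested fell in Ctrl IL in the paired fit alone. Endothelial markers, which mark another cell type rich in class I molecules, summed to 89.8 to 223 CPM in Ctrl CL, 66.2 to 119 in Ctrl IL, 62.8 to 137 in cKO CL and 81.6 to 124 in cKO IL, with none of 6 called unpaired and 1 lower in Ctrl IL in the paired fit. Oligodendrocyte, astrocyte and neuron markers summed to at most 310, 206 and 20.3 CPM. Of these, Gfap rose and Slc1a3 fell in IL in both genotypes, Mobp was lower in cKO than in Ctrl in CL and rose in cKO IL with the libraries unpaired, and no neuron marker was called. The paired fit called no oligodendrocyte marker in cKO and 2 of 6 in Ctrl, both lower in IL.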

How the data were processed

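RNA of CD11b+ cells was sequenced in 14 libraries of 4 groups. The authors made paired-end Smart Seq v4 libraries, mapped reads with STAR to mm10 and worked in Partek Flow 8.0. Their deposited table, named raw counts, holds CPM for 33939 Ensembl genes, of which 33802 matched a symbol. Between 79.0% and 83.5% of its values under 100 reads were whole multiples of 1 step per library, within 0.03 reads, so no count test was run, although tests on counts had been foreseen. Depth was 12.2 to 41.6 M reads, and 1 read was worth 0.0240 to 0.0818 CPM. The authors' tables of their own comparisons (p-value, FDR, ratio, fold change and group means) were not used.

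Libraries were scaled by trimmed means of M-values (30% and 5% trimmed, no weights). Genes entered with 10 reads at median depth in as many libraries as the smaller group and 15 reads in total. limma 3.58.1 in R 4.3.3 fitted log2(CPM + 1) with a trend, p adjusted by Benjamini-Hochberg over all genes tested, called at 0.05 and 1.2-fold. The code was tested on simulated data. Each fit used the libraries compared, and all 14 entered the interaction. Fits with the mouse as a block left out mice with 1 hemisphere. The pairing came from the mouse numbers: deviations from the group means correlated from 0.184 to 0.603 within 6 mice, and from -0.53 to 0.499 between 19 other pairs. P-values of fits without the block take both hemispheres of a mouse as independent.

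Ratios used exact permutations. All 10 genes are named, with Nlrc5, Irf1, Psme1, Psme2 and Erap1, up to 4 called genes of other lists (otherwise 3), and the 5 genes of most alike pattern. A few other values (Psmb5, Psmb6, H2-Q4, H2-Q1, H2-T10, Pomp, Ifnb1) were chosen after they were seen. Values of the knocked-out gene and of some list members are not reported here. The genes and lists were chosen with earlier results of these data known. Exon lengths came from GENCODE and promoters from RefSeq (GRCm38.p6). Values were summarised in Python 3.11.15 (pandas 2.3.3, numpy 2.4.6) and plotted with matplotlib 3.10.9.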

Additional observations from a re-analysis of the deposited data

Results flagged for a closer look

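Among 26 groups of 4 values examined for a value far from the others (10 genes and 3 ratios in Ctrl CL and Ctrl IL), 1 was found. Psmb8 in the Ctrl IL library of mouse 3546 read 127 CPM, against 207 to 223 CPM in the other 3, with a gap of 0.836 of the range, above Dixon's 95% critical value. Chance gives such a flag in about 1 of 20 groups. Groups of 3 were not examined.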

How the results depend on the processing

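The 10 class I genes stayed uncalled between genotypes and in the interaction under every alternative run. With the mouse as a replicate block, or as a random effect, 2 of them (H2-D1 and Tap1) were called between hemispheres in Ctrl in place of 0, and 3349 and 4583 genes in all. In cKO the deposited CPM without further scaling called 2 (Tap1 and Psmb8), a single fit of all 14 libraries called 0, and the block and the random effect each called 1 (Tap1). No filter gave 535 genes called between hemispheres in Ctrl, 2436 in cKO, and 67 in IL and 77 in CL between genotypes. The single fit gave 2182, 1688, 171 and 276, and the random effect gave 188 and 296 between genotypes and 4 for the interaction. The fall of the Psmb9 to Psmb6 ratio was -0.86 paired by mouse (adjusted p = 0.0938 by the exact sign-flip test over 6 mice). The remaining causes were not tested. Pseudocounts, upper-quartile and median-ratio scaling and the adjusted p alone kept each number of members called.

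Leaving out single libraries gave 572 (without Ctrl IL 3541) to 1662 (without Ctrl IL 3546) genes called between hemispheres in Ctrl, 1960 (without IL 784) to 3629 in cKO, 44 (without cKO IL 784) to 294 (without Ctrl IL 3546) between genotypes in IL, 67 (without cKO CL 791) to 161 in CL, and 0 to 1 for the interaction, with 0 to 4 members called in cKO. The Psmb10 to Psmb7 difference ran from -0.41 to -0.26 and passed without Ctrl CL 3551, cKO CL 791 or cKO IL 784. Some small log2 differences changed sign. Between hemispheres in Ctrl these were B2m (-0.59 to 0.029), Tap2 (-0.26 to 0.043), Tapbp (-0.17 to 0.036), Psmb8 (-0.0094 to 0.37) and Psmb10 (-0.43 to 0.13). In cKO they were B2m (-0.079 to 0.12), Tap2 (-0.094 to 0.24) and Tapbp (-0.014 to 0.20). Between genotypes in IL they were H2-K1 (-0.0065 to 0.27), H2-D1 (-0.28 to 0.0036), B2m (-0.32 to 0.29), Psmb8 (-0.10 to 0.26) and Psmb10 (-0.0057 to 0.54), and in CL H2-K1 (-0.017 to 0.15), H2-D1 (-0.030 to 0.38) and Tap2 (-0.14 to 0.19). For the interaction they were H2-K1 (-0.086 to 0.22), B2m (-0.056 to 0.57), Tap2 (-0.0062 to 0.31) and Tapbp (-0.0022 to 0.26). In cKO, B2m was also -0.051 without further scaling, -0.039 with upper-quartile scaling and -0.00172 in the single fit, Tapbp -0.00924 without further scaling, and Tap2 -0.0042 with the random effect and -0.073 with the block. Between genotypes in CL, Tap2 was -0.00876 without further scaling and -0.016 without the filter.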
